A study of Mus musculus with 16 samples.

Results

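Axon guidance cues are secreted or membrane-bound ligands that attract or repel growing cells through cell surface receptors. Semaphorins act on plexins, with neuropilins as co-receptors of the secreted class 3 members. Ephrins on 1 cell act on Eph receptor tyrosine kinases on the next, Slits act on Robo receptors, and netrins act on DCC, neogenin and UNC5 receptors. Outside the nervous system the same proteins are known for guiding blood vessels and moving leukocytes, and in liver Slit-Robo signalling has been described in hepatic stellate cells, the pericytes that make scar matrix. The genes described here are those whose symbol marks a semaphorin, plexin, neuropilin, ephrin, Eph receptor, Slit, Robo or numbered netrin. Of 19938 genes with a row of their own on the array, 63 were of this kind, 35 ligands and 28 receptors; the rule uses symbols only.

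RNA was measured in 7 liver samples from Pdgf-c transgenic mice and 9 from wildtype mice, both of the C57BL/6 background, on 1 Affymetrix Mouse Gene 1.0 ST array each. The Pdgf-c transgene supplies extra PDGF-C, a growth factor that acts on fibroblasts and stellate cells, and the series asks whether liver stromal cells contribute to tumour formation. No promoter for the transgene and no age is given in the labels. They do not say whether each sample is a different animal, and the p-values therefore cover only the spread between these samples, which may be technical. The cell type label reads stromal cells, but the protocol describes total hepatic RNA, and albumin mRNA (Alb) was near the top of the scale in both groups, at 13.5 ± 0.0366 in transgenic and 13.6 ± 0.0777 in wildtype arrays (log2 intensity, SD). The Pdgfc row ranged from 6.13 to 6.63 (median 6.53) in transgenic arrays and from 5.76 to 6.19 (median 6.00) in wildtype arrays, with 6 of 7 transgenic arrays above all wildtype arrays.

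Of the 63 genes, 17 were higher and 6 lower in the transgenic livers at an adjusted p of 0.05 (limma, Benjamini-Hochberg over all 35557 rows). Over all 19938 genes, 23.2% were called, 12.1% higher and 11.1% lower, and over all rows 18.9%. With each array centred on its median the counts among the 63 were 17 higher and 11 lower, and after quantile normalization 17 and 9. The shares of all genes given here are for the values as deposited only. Centring moved the median row from -0.03 to -0.08, so calls lower are not comparable with those shares. At a change of at least 1.5-fold, 4 were higher (Robo2, Robo1, Plxna4 and Sema4d) and 1 lower (Plxnc1), beside 3.78% and 0.868% of all genes. The other 18 called genes changed by less, with rises of 0.21 to 0.47 and falls of -0.23 to -0.34 on the log2 scale. No transgenic array fell within the wildtype range in 8 genes that were higher and 2 that were lower, beside 5.43% and 3.65% of all genes. The median difference was -0.01 over the 63 genes and -0.04 over all genes. Among the ligands 9 were higher and 3 lower, and among the receptors 8 and 3. The families differed in how many members were called: 3 of 4 Robos, 7 of 13 semaphorins of classes 4 to 7, 4 of 9 plexins and 2 of 4 netrins, but 1 of 7 class 3 semaphorins, 3 of 13 Eph receptors, 2 of 8 ephrins and 0 of 3 Slits (limma). No Slit had an unadjusted p under 0.05 either, and whether families differed from each other was not tested. Calls also went with level. Of all genes above the median of the whole table (5.26), 33.8% were called, and of those at or below it 8.75%. Among the 63 genes, 36.5% were called, 17 of 37 above that median (45.9%) and 6 of 26 at or below it (23.1%). Whether these shares differ from those of all genes was not tested. Above that median lay 10 of 13 semaphorins of classes 4 to 7, 7 of 9 plexins and 3 of 4 Robos. So did 3 of 4 netrins and 5 of 8 ephrins, but only 2 of 7 class 3 semaphorins, 5 of 13 Eph receptors and 0 of 3 Slits. The family counts were not matched for level.

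**Figure D1:**
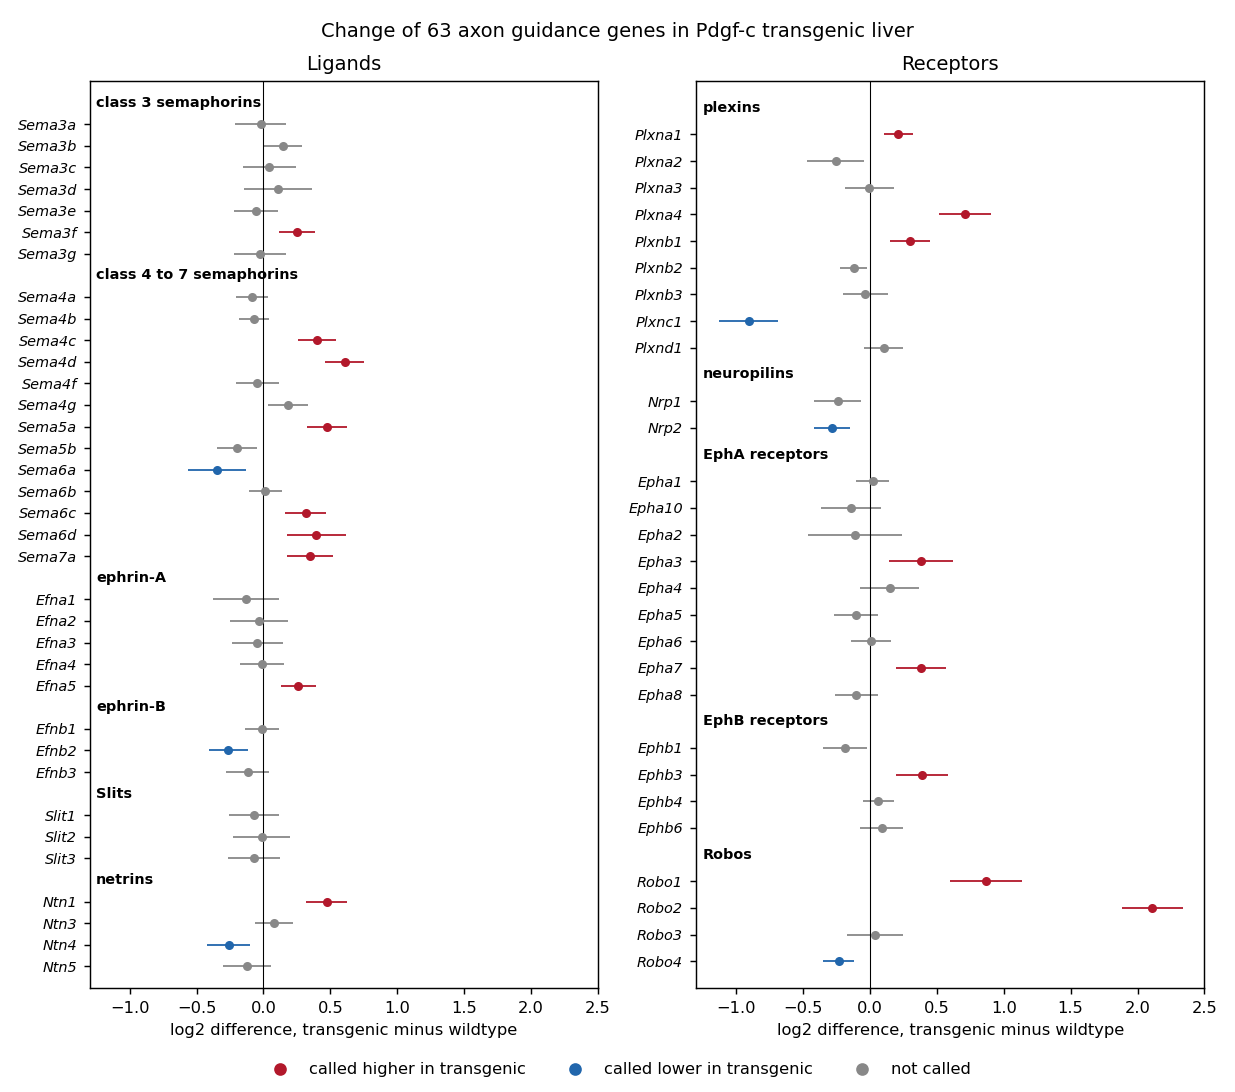
Change of each of the 63 genes, ligands on the left and receptors on the right, as the log2 difference of transgenic minus wildtype with its 95% interval from the limma fit. Robo2 stands apart at 2.11 and Plxnc1 is the lowest at -0.91, while the 3 Slits lie near 0.

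Marker genes of liver cell types also differed between the groups. All 11 markers of stellate cells and fibroblasts rose, with a summed level of 12.7 to 13.0 in transgenic arrays and 10.6 to 11.3 in wildtype arrays (log2 of summed intensities), and their median difference was 1.94. Of 8 markers of sinusoidal endothelium 6 fell and none rose, with summed levels of 9.52 to 9.96 in transgenic and 10.9 to 11.3 in wildtype arrays. All 6 Kupffer cell markers fell and all 6 markers of monocytes and macrophages rose, while 6 of 9 vascular endothelial markers, 3 of 5 neutrophil markers and 3 of 6 lymphocyte markers rose. Of 6 hepatocyte markers 1 rose and 3 fell, all by less than 1.5-fold. None of 6 Schwann cell and neuron markers and none of 4 cholangiocyte markers was called, and 2 of the 14 markers among platelet, lymphatic, smooth muscle and mesothelial genes fell and 5 rose. In bulk RNA a change in the number of cells of a type and a change in the RNA of each cell cannot be told apart. The part of these marker changes in the results below was not tested.

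The largest change was in Robo2, a Robo receptor that binds Slits and in neurons steers axons away from the midline. Robo2 had log2 intensities of 7.04 to 7.74 (median 7.32) in transgenic arrays and 4.97 to 5.60 (median 5.30) in wildtype arrays. The lowest transgenic array thus lay well above the highest wildtype array. The difference was 2.11 ± 0.108 (SE, 7 against 9 arrays), a 4.32-fold rise (limma adjusted p = 1.36e-10). Robo1 had 6.91 to 7.79 (median 7.05) in transgenic and 6.04 to 6.86 (median 6.19) in wildtype arrays. These groups did not overlap either, although the lowest transgenic and highest wildtype arrays came close. Robo1 rose 1.82-fold (0.86 ± 0.128, adjusted p = 7.28e-05), and by 0.76 ± 0.107 without transgenic array 6, which was the highest. Robo4, a member of endothelial cells, moved the other way: it had 5.67 to 5.99 (median 5.88) in transgenic and 6.00 to 6.23 (median 6.08) in wildtype arrays, so that all transgenic arrays lay below all wildtype ones by a narrow margin. Its fall was 1.17-fold (-0.23 ± 0.0547, adjusted p = 0.00512). Robo3, known from commissural neurons, differed by 0.04 ± 0.1 (adjusted p = 0.833). The fall of Robo4 went with falls in 6 of 8 sinusoidal but rises in 6 of 9 vascular endothelial markers. The rise of Robo1 and Robo2 went with rises in all 11 stellate cell, all 6 monocyte and 3 of 5 neutrophil markers. It also went with rises in 6 of 9 vascular endothelial, 3 of 6 lymphocyte, 2 of 4 smooth muscle and 1 of 3 mesothelial markers. Of 4 platelet markers 2 rose and 1 fell. No relation between these markers and the Robos across arrays was computed.

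The Slits, ligands of Robo1 and Robo2, were not called. Slit2 had 3.33 to 3.76 (median 3.70) in transgenic and 3.22 to 3.81 (median 3.67) in wildtype arrays, close to the 20th percentile of the whole table (3.45). Its difference was -0.01, with a 95% interval of -0.22 to 0.20. Slit3 had 4.83 to 5.41 (median 5.01) in transgenic and 4.92 to 5.40 (median 5.19) in wildtype arrays, a difference of -0.07 with an interval of -0.27 to 0.12. Slit1 likewise differed by -0.07 (-0.26 to 0.12). In all 3 genes the groups overlapped over most of their range. Slit2 and Slit3 each carry a copy of the microRNA miR-218 within the gene, a microRNA known to act on Robo1 transcripts. Both copies give the same mature RNA, shown from RefSeq (GRCm38.p6, chr5:48223966-48223986 and chr11:35616840-35616860, both on the plus strand) with the seed, bases 2 to 8, in capitals.
mmu-miR-218-5p: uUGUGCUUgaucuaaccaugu
The array rows of the 2 hairpin genes differed by -0.05 ± 0.106 (Mir218-1, limma adjusted p = 0.787) and -0.11 ± 0.0991 (Mir218-2, adjusted p = 0.517). These rows do not measure the mature microRNA.

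Robo1 and Robo2 lie on chromosome 16 with 0 protein-coding genes annotated between them. RefSeq windows from 250 bases before to 50 bases after a transcript start are shown for these 2 genes that rose and for Plxnc1, the receptor gene that fell most. Such windows were at hand for 55 of the 63 genes, with 1 for Robo1, 1 for Plxnc1 and 3 for Robo2, of which the one nearest the annotated outer end of the gene is shown. In build GRCm38.p6 they lie at chr16:75447244-75447543 on the minus strand (Robo2), chr16:72662899-72663198 on the plus strand (Robo1) and chr10:94944796-94945095 on the minus strand (Plxnc1). Capitals mark matches on either strand to the TATA box TATAAA, the CAAT box CCAAT, the GC box GGGCGG, the E-box CACGTG, the TEAD motif CATTCC and the AP-1 motif TGANTCA.
Robo2: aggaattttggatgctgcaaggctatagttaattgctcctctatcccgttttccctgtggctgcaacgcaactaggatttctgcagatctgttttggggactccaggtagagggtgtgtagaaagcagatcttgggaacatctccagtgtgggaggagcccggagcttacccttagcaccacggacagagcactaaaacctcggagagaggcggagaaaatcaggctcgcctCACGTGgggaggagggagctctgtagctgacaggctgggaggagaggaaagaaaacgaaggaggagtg
Robo1: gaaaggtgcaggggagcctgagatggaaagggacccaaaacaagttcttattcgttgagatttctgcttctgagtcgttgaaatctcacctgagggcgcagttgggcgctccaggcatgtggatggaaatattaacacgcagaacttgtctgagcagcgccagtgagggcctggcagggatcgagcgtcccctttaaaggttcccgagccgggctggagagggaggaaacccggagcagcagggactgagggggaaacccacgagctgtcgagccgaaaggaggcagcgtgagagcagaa
Plxnc1: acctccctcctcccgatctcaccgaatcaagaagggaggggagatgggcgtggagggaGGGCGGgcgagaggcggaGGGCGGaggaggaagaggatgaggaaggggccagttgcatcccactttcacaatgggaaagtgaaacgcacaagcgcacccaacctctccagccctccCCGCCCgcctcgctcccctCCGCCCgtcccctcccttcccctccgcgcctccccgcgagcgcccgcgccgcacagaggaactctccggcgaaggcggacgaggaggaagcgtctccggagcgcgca
The Plxnc1 window held 4 matches to GGGCGG, the GC box, and the Robo1 window and the Robo2 window above held 0. A GC box occurred in 35.7% of all 32851 RefSeq windows. This Robo2 window held 1 CACGTG, found in 7.15% of all windows, while the other 2 held none and 1 of them held a CATTCC, and the Robo1 window held none of the 6 motifs, of which TATAAA occurred in 13.6%, CCAAT in 37.4%, CATTCC in 14.7% and TGANTCA in 7.81% of all windows. GC content was 53.3% for the Robo2 window shown (45% and 65% in the other 2), 57.0% for Robo1 and 69.0% for Plxnc1, where the median of all windows was 52.7%. These are matches of letters only.

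Among the plexins, the main semaphorin receptors, the A1, A4 and B1 members rose and C1 fell. Plxnc1, the receptor of Sema7a on leukocytes and other cells, had 5.63 to 6.13 (median 5.90) in transgenic and 6.51 to 7.26 (median 6.73) in wildtype arrays. The groups did not overlap, and the level was 1.87-fold lower in the transgenic livers (-0.91 ± 0.104, adjusted p = 4.52e-06). Plxna4, a receptor for class 3 and class 6 semaphorins, had 5.62 to 6.36 (median 6.14) in transgenic and 5.21 to 5.59 (median 5.40) in wildtype arrays. The groups were separate only just, because transgenic array 6 lay far below the other 6. Plxna4 rose 1.64-fold (0.71 ± 0.0919, adjusted p = 1.78e-05). Plxnb1, a receptor of Sema4d, rose 1.23-fold (0.30 ± 0.0705, adjusted p = 0.00487). Plxna1 rose 1.16-fold (0.21 ± 0.0501, adjusted p = 0.00494), a call that was lost after quantile normalization (adjusted p = 0.0658). Plxna2 differed by -0.25 ± 0.101, Plxnb2 by -0.12 ± 0.0476 and Plxnd1, a vascular plexin, by 0.10 ± 0.0698, none of them called (limma adjusted p = 0.0947, 0.0939 and 0.364). Plxna2 passed after quantile normalization (0.0246) and without wildtype array 3, its lowest (0.000855), and Plxnb2 with arrays centred on their medians (-0.17, 0.0312). All 6 Kupffer cell markers and 6 of 8 sinusoidal endothelial markers were also lower in the transgenic group. All 6 monocyte and macrophage markers, 3 of 5 neutrophil and 3 of 6 lymphocyte markers were higher. The part of any of these cell types in the fall of Plxnc1 was not tested.

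The neuropilins, co-receptors for class 3 semaphorins and VEGF, were lower or not called. Nrp2 had 5.43 to 5.77 (median 5.55) in transgenic and 5.66 to 6.05 (median 5.84) in wildtype arrays. With 6 of 7 transgenic arrays below all wildtype arrays, it was 1.22-fold lower (-0.29 ± 0.0645, adjusted p = 0.00372). Nrp1 had 7.92 to 8.49 (median 8.06) in transgenic and 8.09 to 8.57 (median 8.36) in wildtype arrays. Its difference of -0.24 ± 0.0839 missed the threshold (limma adjusted p = 0.0535), but it passed after quantile normalization (0.0451) and without transgenic array 7 (0.00684).

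**Figure D2:**
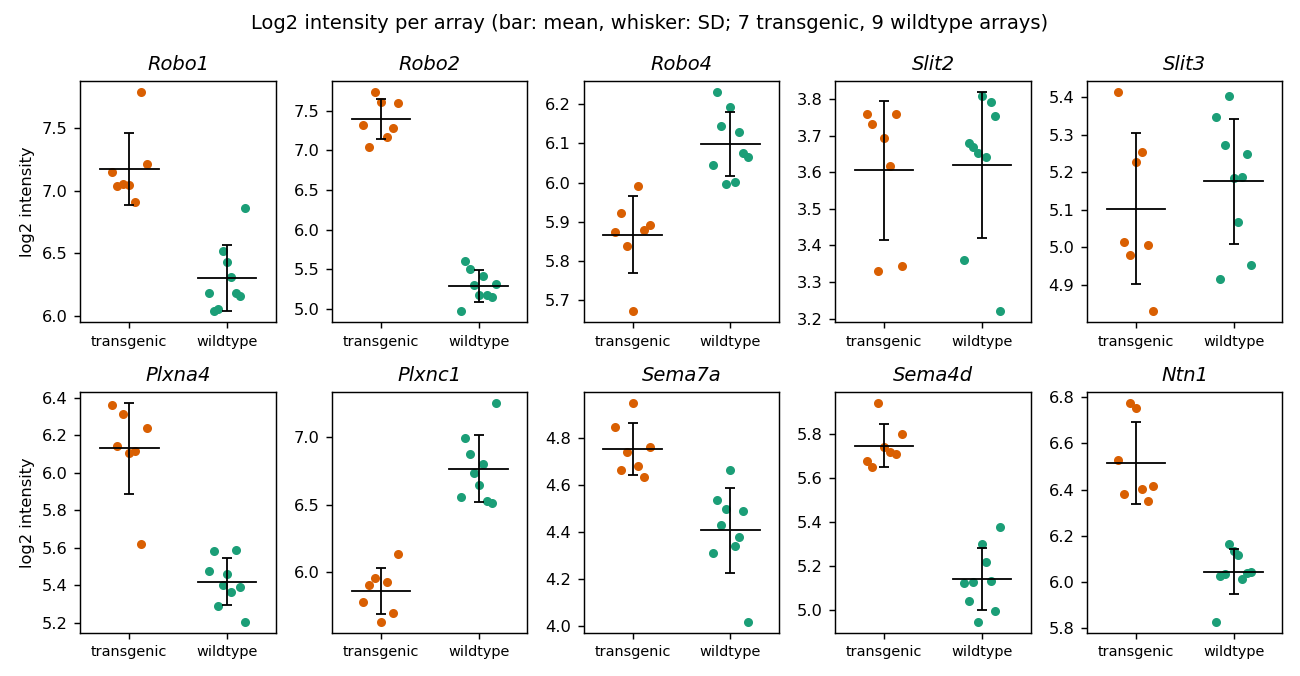
Log2 intensity of 10 genes in each of 7 transgenic and 9 wildtype arrays, each panel on its own scale, with the group mean and SD. The groups are separate for Robo1, Robo2, Robo4, Plxna4, Plxnc1, Sema4d and Ntn1 and overlap for Slit2, Slit3 and Sema7a.

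Of the 13 semaphorins of classes 4 to 7, which are bound to the membrane or, in class 7, anchored by a lipid, 6 rose and 1 fell. Sema4d, a lymphocyte and platelet semaphorin that acts on Plxnb1, had 5.65 to 5.94 (median 5.72) in transgenic and 4.95 to 5.38 (median 5.13) in wildtype arrays. The groups did not overlap and the rise was 1.52-fold (0.61 ± 0.0684, adjusted p = 3.63e-06). A second Sema4d row differed by 0.02 ± 0.0785 (adjusted p = 0.912), so that the mean over both rows rose by 0.31 ± 0.053. Sema5a had 4.83 to 4.97 (median 4.90) in transgenic and 4.11 to 4.69 (median 4.44) in wildtype arrays, again without overlap. It rose 1.39-fold (0.47 ± 0.0705, adjusted p = 7.64e-05), and its level lay below the median of the whole table (5.26). Sema4c, a ligand of Plxnb2, had 5.82 to 6.03 (median 5.93) in transgenic and 5.29 to 5.69 (median 5.60) in wildtype arrays. The groups were separate and the rise was 1.32-fold (0.40 ± 0.0676, adjusted p = 0.000266).

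Smaller rises came with some overlap of the groups. Sema6d rose 1.32-fold (0.40 ± 0.103), Sema7a 1.27-fold (0.35 ± 0.0823) and Sema6c 1.25-fold (0.32 ± 0.0734), and limma adjusted p-values were 0.0105, 0.00543 and 0.00452. Sema6a, whose receptors are the A2 and A4 plexins, was the one that fell, 1.27-fold (-0.34 ± 0.103, adjusted p = 0.0244). Sema6a was no longer called without transgenic array 4, its lowest (-0.27, adjusted p = 0.0537). Sema5b differed by -0.20 ± 0.0702 and was not called (limma adjusted p = 0.0592), but it was called lower in 9 alternatives, among them quantile normalization (0.00802) and centring (0.00875). Of the 7 secreted class 3 semaphorins Sema3f, a ligand of Nrp2, rose 1.19-fold (0.25 ± 0.0641, adjusted p = 0.00913) and the other 6 lay between -0.05 and 0.14 and were not called (limma). Sema3a, Sema3c and Sema3e had means of 3.49 to 3.84 over all arrays, little above the 20th percentile of the table.

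The netrins are laminin-like proteins, and 2 of the 4 were called, in opposite directions. Ntn1, the classic axon attractant, had 6.35 to 6.78 (median 6.41) in transgenic and 5.83 to 6.17 (median 6.04) in wildtype arrays. All transgenic arrays were above all wildtype arrays, and the rise was 1.39-fold (0.47 ± 0.0721, adjusted p = 0.000105). Ntn4, a netrin of vascular basement membranes, was 1.2-fold lower (-0.26 ± 0.0776, adjusted p = 0.0234). That call was lost without transgenic array 4, 6 or 7 (adjusted p = 0.0582, 0.0515 and 0.0548) and with the replicate number as a block (0.0514). Unc5b, a netrin receptor outside the 63 genes, ranged from 6.16 to 6.54 in transgenic and from 5.09 to 5.58 in wildtype arrays and rose 2.22-fold (1.15 ± 0.0738, adjusted p = 2.66e-09).

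Of the 8 ephrins 25% and of the 13 Eph receptors 23.1% were called, close to the 23.2% of all genes, and none changed by 1.5-fold. Ephb3, a receptor of B-type ephrins, had 4.83 to 5.22 (median 5.04) in transgenic and 4.23 to 4.87 (median 4.67) in wildtype arrays. In 5 of 7 transgenic arrays it exceeded all wildtype arrays, and it rose 1.31-fold (0.39 ± 0.0915, adjusted p = 0.00498). Epha7 and Epha3, which bind A-type ephrins, each rose 1.3-fold (0.38 ± 0.0882 and 0.38 ± 0.113, limma adjusted p = 0.00434 and 0.023). Ephb3, Epha7 and Epha3 had means of 4.80, 5.10 and 4.22 over all arrays, below the median of the whole table (5.26). The call of Epha3 was lost without transgenic array 2 or 7 (adjusted p = 0.055 and 0.0511). Efna5, one of the A-type ligands, rose 1.2-fold (0.26 ± 0.0624, adjusted p = 0.00585). Efnb2, which marks arterial endothelium, was 1.2-fold lower (-0.26 ± 0.0685, adjusted p = 0.0102), with 6 of 7 transgenic arrays below all wildtype arrays. Its receptor Ephb4, which marks veins, differed by 0.06 with a 95% interval of -0.05 to 0.18. Efna1 and its receptor Epha2 differed by -0.13 ± 0.115 and -0.11 ± 0.168 and were not called (limma adjusted p = 0.499 and 0.72). Epha2 varied most within groups of all 63 genes, with an SD of 0.444 in transgenic and 0.291 in wildtype arrays, where the median SD of the 63 genes was 0.158 and 0.153.

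Ligands were then set against their receptors in 22 pairs known from textbooks and measured on both sides, picked with earlier results of these data known. In 5 pairs both were called in the same direction, in 2 in opposite directions, in 4 only the ligand, in 6 only the receptor and in 5 neither. For each pair the log2 value of the ligand minus that of the receptor was taken in every array and compared between the groups with an exact two-sided permutation test over all 11440 splits of the arrays, whose smallest p is 8.74e-05, with Benjamini-Hochberg adjustment over the 22 pairs. Ligand and receptor changed unequally in 14 pairs. Where only the ligand or only the receptor was called, as in 4 and 6 pairs, a gap can follow from that gene's change alone. The share of unequal changes among other pairs of genes was not computed. The count of 14 is therefore a description and does not show an imbalance particular to ligands and receptors. Pairs that share a gene are not independent of each other.

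The Slit pairs stood at one end. The change of Slit2 minus that of Robo2 was -2.13 ± 0.179 (SE, exact permutation adjusted p = 0.000385), and it was -0.88 ± 0.177 for Slit2 and Robo1 (0.00173). For Slit3 and Robo1 it was -0.94 ± 0.188 (exact permutation adjusted p = 0.00144). Slit2 lay near the 20th percentile of the table, the gap to Robo2 is close to Robo2's own change of 2.11, and none of the 3 Slit pairs was kept when only rows above the table median were used. Sema7a and Plxnc1 stood at the other end, with the ligand called higher and the receptor lower and a difference of 1.25 ± 0.154 (exact permutation adjusted p = 0.000385). Sema7a had a mean of 4.56, below the table median, so this pair was not kept in that run either. Sema3f and Nrp2 were also called in opposite directions (0.54 ± 0.0971, exact permutation adjusted p = 0.00137). Ntn1 and Unc5b both rose, the receptor by more (-0.68 ± 0.109, exact permutation adjusted p = 0.000385), and Sema4d and Plxnb1 both rose, the ligand by more (0.31 ± 0.0958, exact permutation adjusted p = 0.00994). That last gap rests on the brighter Sema4d row, and with the mean of both rows it was 0.01 (exact permutation adjusted p = 0.908). Sema4c rose beside an uncalled Plxnb2 (0.52 ± 0.0709) and Sema5a beside an uncalled Plxnb3 (0.51 ± 0.065), each at an exact permutation adjusted p of 0.000385. Efnb2 and Ephb4 differed by -0.32 ± 0.086 (exact permutation adjusted p = 0.00612) and Efnb1 and Ephb3 by -0.40 ± 0.0939 (0.00171). Sema5a, Plxnb3, Efnb2 and Ephb3 also lay below the table median, so their pairs were not kept in the run on rows above it. No unequal change was called for Ntn1 and Neo1, which both rose (0.15 ± 0.118, exact permutation adjusted p = 0.231), for Sema6d and Plxna1 (0.18 ± 0.119, 0.191) or for Efna5 and Epha3 (-0.12 ± 0.153, 0.477).

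**Figure D3:**
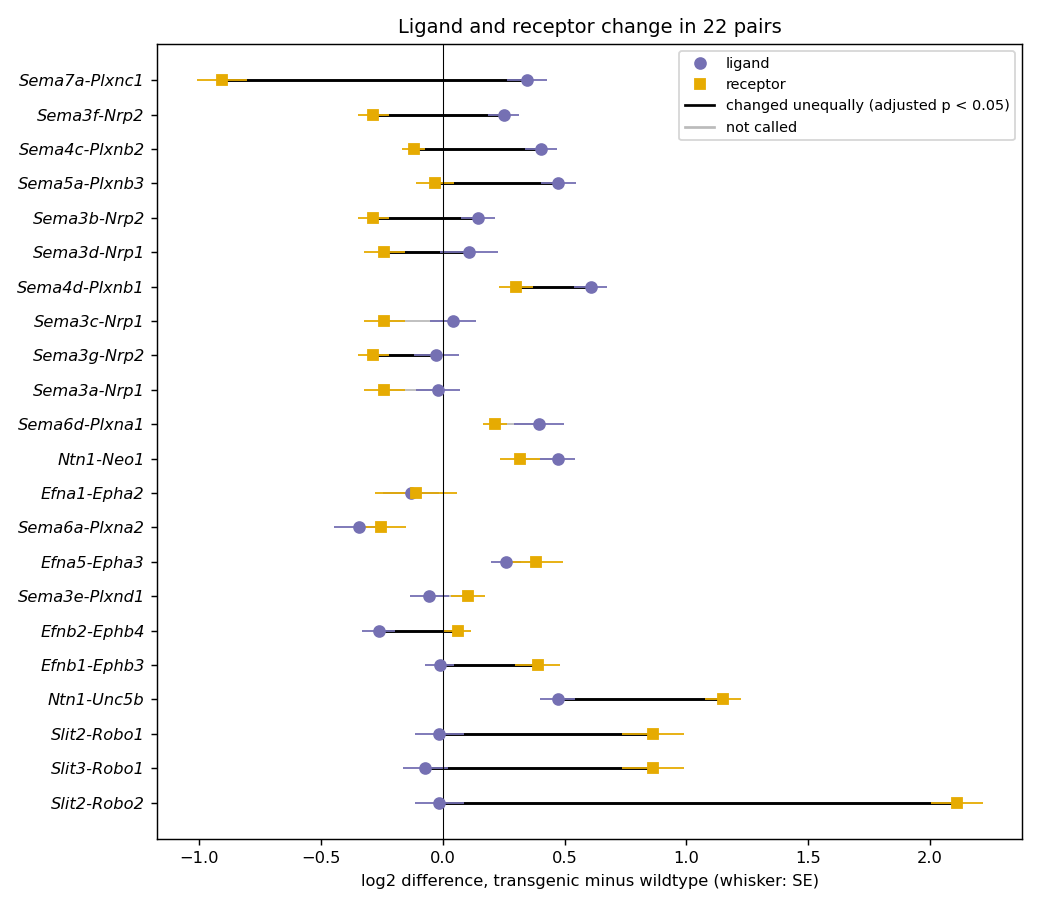
Log2 difference of transgenic minus wildtype for the ligand (circle) and the receptor (square) of 22 pairs, with SE, ordered by the gap between them. Dark lines mark the 14 pairs that changed unequally. The widest gaps are Slit2 with Robo2 and Sema7a with Plxnc1.

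Within a genotype, no correlation between ligand and receptor levels passed the test after adjustment. Over the 22 pairs, Pearson's r ran from -0.70 to 0.682 across the 7 transgenic arrays and from -0.605 to 0.597 across the 9 wildtype arrays. Of 44 correlations, 0 had an adjusted exact permutation p under 0.05, and at an unadjusted p of 0.05 there were 0 by Pearson's r and 1 by Spearman's rho. The smallest adjusted exact permutation p was 0.688 for r and 0.95 for rho. The strongest in transgenic arrays, Slit2 with Robo2 (r = -0.70, rho = -0.536, exact permutation p = 0.0925 and 0.236, n = 7), was 0.0332 without the 2 arrays farthest from the Slit2 median. The sign of r turned in 26 of the 44 cases when the 2 farthest arrays were left out. No correlation over both genotypes was computed, since the groups are separate in many of these genes.

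Partners and effectors outside the 63 genes were read from a list of 67 measured genes. Of these 20 were higher (29.9%) and 7 lower (10.4%) in the transgenic livers (limma), beside 12.1% and 11.1% of all genes. In either direction 40.3% were called, beside 23.2% of all genes. Above the table median, where 45 of the 67 lay, 33.8% of all genes were called, and at or below it 8.75%. The 40.3% was not matched for level. The groups of partners below are small, and their counts are read as descriptions. Among receptors and co-receptors Cd72, a B-cell receptor of Sema4d, rose 2.42-fold (1.27 ± 0.119) and Itga1, a chain of the integrin that binds Sema7a, 1.8-fold (0.84 ± 0.06), while Kdr, the VEGF receptor that works with neuropilins, was 2.02-fold lower (-1.01 ± 0.0976). Flrt2 of the same group rose 1.7-fold (0.77 ± 0.117), at a mean level below the table median. Timd2, a receptor described for Sema4a in mouse, was 1.38-fold lower (-0.46 ± 0.053). Of the 15 genes in this group 4 rose and 3 fell. Neo1 and Unc5a, both netrin receptors, rose by 0.32 ± 0.0832 and 0.23 ± 0.0616. Of 16 plexin and semaphorin effectors 5 rose and 1, Farp2, fell (-0.29 ± 0.0469). Dpysl2, a collapsin response mediator of semaphorin signalling, rose 2.43-fold (1.28 ± 0.0894) and its relative Dpysl3 1.39-fold (0.47 ± 0.0571), and the R-Ras gene Rras, a target of plexin GAP activity, rose 1.41-fold (0.50 ± 0.0693). These named genes had limma adjusted p-values of at most 0.011.

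Of 9 effectors of Slit and Robo, 5 rose and 1, the adaptor gene Nck1, fell (-0.25 ± 0.0694, limma adjusted p = 0.0139). The Slit-Robo GTPase activating genes Srgap2 and Srgap3 rose 1.36-fold and 1.3-fold (0.45 ± 0.0753 and 0.38 ± 0.0871), and Srgap1 differed by -0.06 and was not called. The actin regulator Evl rose 1.24-fold (0.31 ± 0.0691). Of 12 Eph and ephrin effectors, 2 rose and 2 fell, among them the Rac activator Tiam1 (0.49 ± 0.0934) and the endothelial exchange factor Arhgef15 (-0.31 ± 0.0586). The other rise, the phosphatase gene Ptpn13 (0.22 ± 0.0748, limma adjusted p = 0.0472), was not called after quantile normalization (0.0578), with centring (0.107) or in 13 of the 16 fits that left out 1 array. Among 5 VEGF family ligands of neuropilins Vegfc, a lymphatic growth factor, rose 1.74-fold (0.80 ± 0.121), and Vegfa differed by 0.01 and was not called (limma adjusted p = 0.948).

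**Figure D4:**
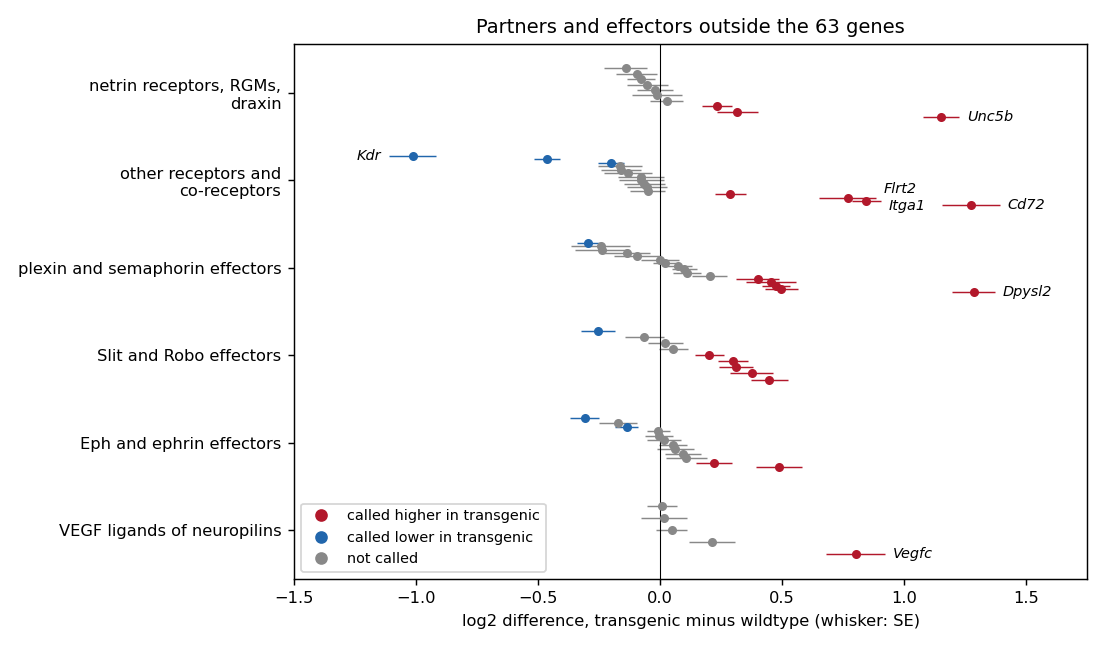
Log2 difference of transgenic minus wildtype, with SE, for 67 partners and effectors outside the 63 genes, by group. Dpysl2, Cd72 and Unc5b lie furthest to the right, above 1, and Kdr furthest to the left at -1.01.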

How the data were processed

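The analysis began from deposited log2 intensities, 35557 rows by 16 arrays. GCRMA is the tool named for these deposited values in the submitters' processing notes; version, settings and log base are not given in the sources used here, and the base was read from the range of 0.71 to 14.7. Column medians lay between 5.20 and 5.36, and r between arrays was 0.976 to 0.991. Scanner files and batches were not analysed here. For arrays, their number limits the precision.

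A table of platform annotation gave 1 symbol for 21789 rows, several for 1621 and none for 12147; the brightest row with 1 symbol stood for a gene, 19938 in all. Ephb2 and its pair were not analysed here. Transgenic and wildtype arrays were set against each other by lmFit and eBayes with trend (limma 3.58.1 under R 4.3.3, no filter, two-sided), with Benjamini-Hochberg adjustment over all rows; 95% intervals come from that fit, which was tested on simulated data. Members, pairs and lists were chosen with earlier results of these data known. Named genes were called members changed by at least 1.5-fold, the strongest of each family, the genes of described pairs and up to 3 called genes per list of partners. Robo3, Robo4, Ntn4, Sema6c, Slit1, Epha3, Plxna2, Sema5b, Timd2, Flrt2, Farp2, Nck1, Mir218-1, Mir218-2, Vegfa and Srgap1 were named after their values were seen. Promoter and microRNA sequences are RefSeq's (GRCm38.p6). Alternatives were quantile normalization, centring, a floor, a level filter, robust eBayes, array weights, the mean over rows, the replicate block and leaving out arrays. Plots used matplotlib 3.10.9.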

Additional observations from a re-analysis of the deposited data

Results flagged for a closer look

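In 126 groups of arrays (63 genes in 2 genotypes), 12 had 1 array far from the rest by Dixon's criterion, where chance gives about 1 in 20, or 6.3. They were spread over 6 transgenic and 6 wildtype groups, and 5 of the genes were called. Robo1 stood at 7.79 in transgenic array 6 (others 6.91 to 7.22), and Plxna4 at 5.62 in the same array (others 6.11 to 6.36). Sema6a was 5.27 in transgenic array 4 (others 5.69 to 5.92). Ntn1 was 5.83 in wildtype array 1 (others 6.01 to 6.17) and Epha3 3.52 in wildtype array 7 (others 3.96 to 4.34). Among genes that were not called, Robo3 was 4.65 in transgenic array 2, Sema3d 4.89 in transgenic array 7 and Sema4a 8.26 in transgenic array 1. Efna2 was 4.42 in wildtype array 9, Plxna2 5.53 in wildtype array 3, Sema3c 3.94 in wildtype array 2 and Sema4b 6.21 in wildtype array 8. Without wildtype array 3, Plxna2 was called lower (-0.33, limma adjusted p = 0.000855).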

How the results depend on the processing

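Of the 23 called genes, 17 kept their call in every alternative run that held them, and Efnb2, Epha3, Ntn4, Plxna1, Sema3f and Sema6a lost it in at least 1. Of the 17, Epha7, Ephb3, Sema5a and Sema7a lay below the table median and were not in the run on rows above it. No called gene changed direction. Nrp1 gained a call in 7 alternatives, Sema5b in 9, Plxna2 in 3, Sema4g and Ephb1 in 2 each and Plxnb2 in 1; among the partners followed singly Ptpn13 lost its call in 18 and Unc5a in 1, the replicate block. Robo2 stayed between 2.05 and 2.17, Robo1 between 0.76 and 0.94, Plxna4 between 0.65 and 0.80 and Plxnc1 between -0.98 and -0.83. Genes called lower numbered 11 with arrays centred on their medians, against 6 as deposited; centring moved the median row from -0.03 to -0.08. Leaving out 1 array at a time gave 16 to 18 higher, 4 to 8 lower and 13 to 16 unequal pairs. Unequal pairs numbered 5 of the 9 left when only rows above the median level were used, and 9 with the replicate block, a sign-flip test whose smallest p is 0.0156. Same-numbered arrays correlated at -0.02 to 0.09 after removal of group means, and no transgenic array correlated best with its own number. These values show no pairing by number, but whole-array correlations cannot exclude a weak one. The block gave 15 higher and 4 lower, and Efnb2, Epha3, Ntn4 and Sema3f lost their calls with it. Robust eBayes and array weights do not apply to the pair test. The pathway list gave 18 to 20 higher and 6 to 7 lower without 1 array.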
